A study of Mus musculus with 65 samples.

Results

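A set of 5 receptor genes was followed here by name across 65 single neurons: Chrnb2, Chrna3, Chrna4 and Chrna7, which encode subunits of nicotinic acetylcholine receptors, and Adra2a, which encodes the alpha-2A adrenergic receptor. Lines for 3 of the 5 genes (Chrnb2, Chrna3 and Adra2a) were found among 11875 named genes. Chrna4 and Chrna7 had no line among them and could not be analysed. Every line of the table used is above 0 in at least 5 cells, so the lines say nothing about transcripts that were rarer than that.

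Nicotinic receptors are cation channels built of several subunits around a pore that acetylcholine opens. Beta subunits do not form a channel alone: the beta-2 subunit joins alpha subunits such as alpha-4 or alpha-3, and alpha-3 with beta-4 makes the receptor typical of autonomic ganglia, whereas alpha-7 can form channels by itself. The alpha-2A adrenergic receptor binds noradrenaline and adrenaline, acts through Gi/o proteins to lower cyclic AMP and open potassium channels, and is known in the dorsal medulla as a target of drugs that lower blood pressure.

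The neurons were red fluorescent cells picked by hand from the dissociated nucleus of the solitary tract (NTS), where signals from the viscera enter the hindbrain. They came from male mice of mixed strain that carried Hsd11b2-Cre and the Cre-dependent Ai9 (lox)tdTomato reporter. Both diets share this genotype: 33 neurons came from mice on standard chow and 32 from mice on a low sodium diet. Red colour marks any cell in which Hsd11b2-Cre has acted, the protocol label names the digested tissue as Arc-ME whereas the tissue label names the NTS (followed here), and no label names an animal or its age. Each diet is therefore 1 sample, no test between diets was made, and every SD below is a spread between cells. The markers of the labelled cells were present: at least 3 pan-neuronal markers reached 10 CPM (depth-scaled read counts, the unit behind all levels here) in all 65 cells, and Hsd11b2 itself had a mean log2(CPM + 1) of 8.87 ± 1.14 (SD, n = 65 cells).

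Depth ran from 50072 to 5317020 reads per cell over the listed genes (median 651132), as recovered from the steps of the deposited values, and 4700 to 11467 genes were above 0. The CPM of a cell summed to between 754874 and 1147326 in 56 cells but to between 1393471 and 2170050 in 9 low-sodium cells, so diet differences are also given without those 9 cells. These were low-sodium neurons 42, 45 to 51 and 57. Of the low-sodium neurons numbered above 35, only neuron 52 had a usual sum. What the numbering follows is not given in the labels, and its part in these sums was not tested. At least 3 astrocyte, oligodendrocyte or endothelial markers reached 10 CPM in 36 of the 65 cells (19 chow and 17 low-sodium), although some of these markers can also be made by neurons. Intervals beside shares of cells are exact (Clopper-Pearson) 95% intervals. They cover the counting of cells, not the spread between animals. No molecular identifiers are described for these libraries, so reads are not independent molecules.

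The members lie apart in the genome except for a cluster on chromosome 9. In GRCm38 (GENCODE M21), the protein-coding gene Chrnb2 lies on chromosome 3 at 89746195 to 89764632, on the minus strand. Adra2a lies on chromosome 19 at 54044151 to 54048982, on the plus strand. Chrna3 lies on chromosome 9 at 55010111 to 55026562, on the minus strand, and only 1591 bases separate it from Chrnb4 at 55028154 to 55048779, the gene of the beta-4 subunit that partners alpha-3. Chrnb4 was the only one of 12 other nicotinic subunit genes with a line, and it is described beside Chrna3 for that reason. The 250 bases just before the starts of Chrnb2 and Chrna3 (RefSeq, GRCm38.p6, chr3:89764633-89764882 and chr9:55026563-55026812, both on the minus strand) are shown because the first stands before a gene found in every neuron and the second before a gene found in few. Capitals mark E-boxes, CANNTG.
Chrnb2: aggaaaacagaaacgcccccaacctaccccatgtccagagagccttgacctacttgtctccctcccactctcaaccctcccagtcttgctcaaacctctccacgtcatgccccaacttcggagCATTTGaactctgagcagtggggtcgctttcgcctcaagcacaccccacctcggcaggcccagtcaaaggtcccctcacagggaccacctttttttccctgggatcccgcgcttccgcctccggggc
Chrna3: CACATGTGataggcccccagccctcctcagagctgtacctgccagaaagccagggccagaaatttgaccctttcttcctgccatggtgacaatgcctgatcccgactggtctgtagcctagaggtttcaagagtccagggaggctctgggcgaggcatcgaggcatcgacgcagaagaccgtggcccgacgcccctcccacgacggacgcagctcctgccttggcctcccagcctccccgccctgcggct
The Chrnb2 stretch holds 1 E-box at 127 bases before the start, and the Chrna3 stretch holds 2 that overlap at its far end. E-boxes stand in 66.2% of 32851 RefSeq promoter windows of the same length, so their presence is ordinary. A GC box (GGGCGG, either strand) stands 13 bases before the Chrna3 start and in 32.7% of all windows, and the cAMP response half-site TGACG (either strand) stands 148 bases before the Chrnb2 start and in 17.8% of all windows. On either strand, neither stretch holds the CCAAT box (33.9% of windows), a TATA box spelled TATAAA (12.4% of windows) or the steroid receptor half-site AGAACA (16.1% of windows). These matches describe letters in a window and were not tied to any measured binding.

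Chrnb2, the beta-2 subunit, was the nicotinic transcript common to all of these neurons. It was above 0 in 65 of 65 cells (100%, interval 94.5 to 100%), at 10 CPM or more in 64, and in 63 of 65 when every cell was thinned at random to the same 50000 reads. Between 2 and 1631 reads stood behind it per cell, with a median of 164. The lowest chow cell was at 3.35 log2(CPM + 1), the median at 7.21 and the highest at 9.33, for a mean of 7.26 ± 1.14 (n = 33). The low-sodium cells ran from 4.19 through a median of 7.77 to 11.93, for a mean of 8.21 ± 1.94 (n = 32). The upper end of the low-sodium range was thus the part without a match in chow.

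That upper end was made by the 9 cells with high CPM sums. They held Chrnb2 at 9.26 to 11.93 (median 10.89, mean 10.85 ± 0.93), whereas the other 23 low-sodium cells held it at 4.19 to 8.86 (mean 7.18 ± 1.03). Those 23 cells lay within the range of the chow cells, and a single chow cell lay above the lowest of the 9. Over all cells the low-sodium mean lay 0.95 above the chow mean. Without the 9 cells the difference was -0.079, and with every cell also thinned to 50000 reads it was -0.30, so its direction turned. By comparison, 3.93% of 10726 genes with a mean of at least 1 had a low-sodium mean higher by 1 or more over all cells and 6.99% lower by 1 or more. Without the 9 cells these shares were 2.96% and 6.73%. Chrnb2 reached that size in neither set.

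**Figure D1:**
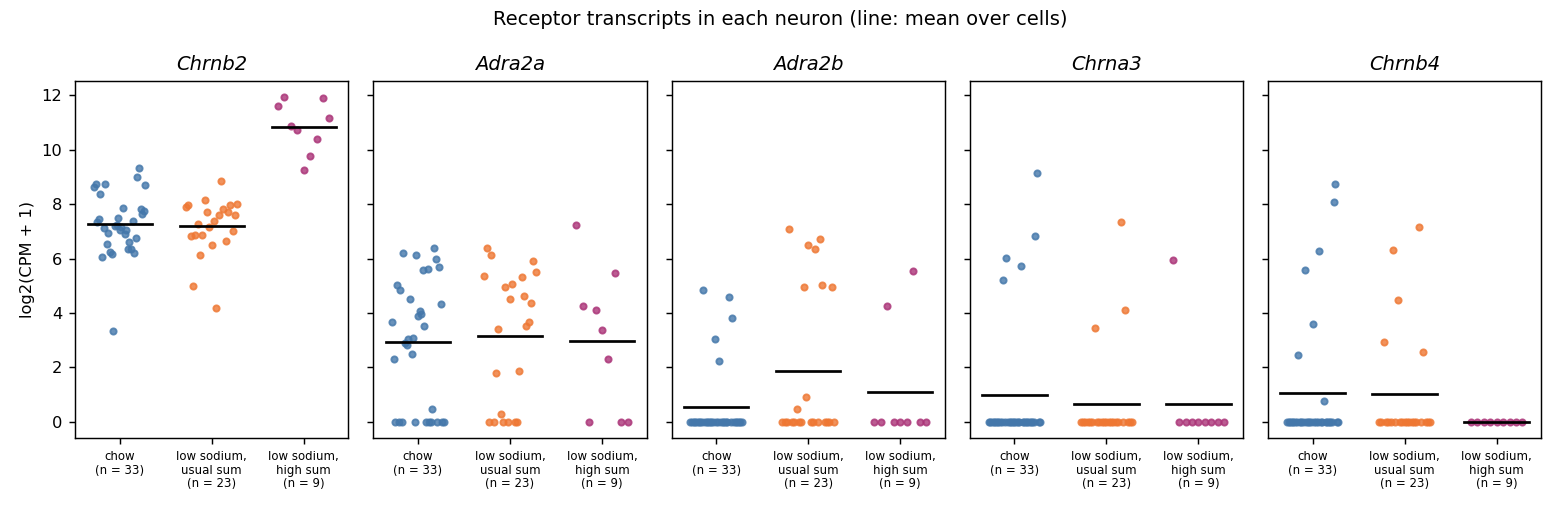
Level of each receptor transcript as log2(CPM + 1), 1 point per neuron, for 33 chow cells, 23 low-sodium cells with usual CPM sums and 9 low-sodium cells with high CPM sums; black lines are means over cells. Chrnb2 is above 0 in every cell and stands at 9.26 or more in the 9 cells, while Chrna3 and Chrnb4 are at 0 in most cells.

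Within the low-sodium cells, Chrnb2 stood 3.66 higher in the 9 cells than in the 23 others, which placed it 107th of 10726 genes. In this comparison 20.6% of genes were higher by 1 or more, and in 0.718% of genes, Chrnb2 among them, every one of the 9 cells lay above every one of the 23. The median over all genes was -0.14. When each cell was rescaled to the same CPM sum, a setting chosen after the values were seen, the Chrnb2 difference was 2.81 against a median over genes of -0.65, and 7 of the 56 other cells lay above the lowest of the 9. The 9 cells held 218805 to 697726 reads (median 454173), against a median of 1088324 in the 23 others (50537 to 5317020). Their summed pan-neuronal markers (50.9 to 56.1 on the summed log2 scale) lay inside the range of the other low-sodium cells (48.0 to 60.6). The scale that the submitters used for these cells is not given in the sources used here, and its part in the Chrnb2 level was not tested.

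Some reads counted for Chrnb2 may come from a neighbour. Of its 8380 exon bases, 1365 (16.3%) are shared with exons of Adar, the gene of an RNA-editing enzyme, which runs into it from the opposite strand. The strand setting of the counting is not given in the sources used here, so reads from the shared stretch cannot be told apart. Adar itself stood at 8.45 ± 1.17 in the 9 cells, at 5.89 ± 1.78 in the 23 other low-sodium cells and at 6.35 ± 1.17 in chow cells, so it too was higher in the 9. Against the 23 its difference was 2.56, 469th of 10726 genes, of which 20.6% were higher by 1 or more. Across cells the genes were weakly related, with a Spearman rho of 0.16 over 65 cells and -0.20 over the 56 cells without high sums, as descriptions over cells that share library depth.

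**Figure D2:**
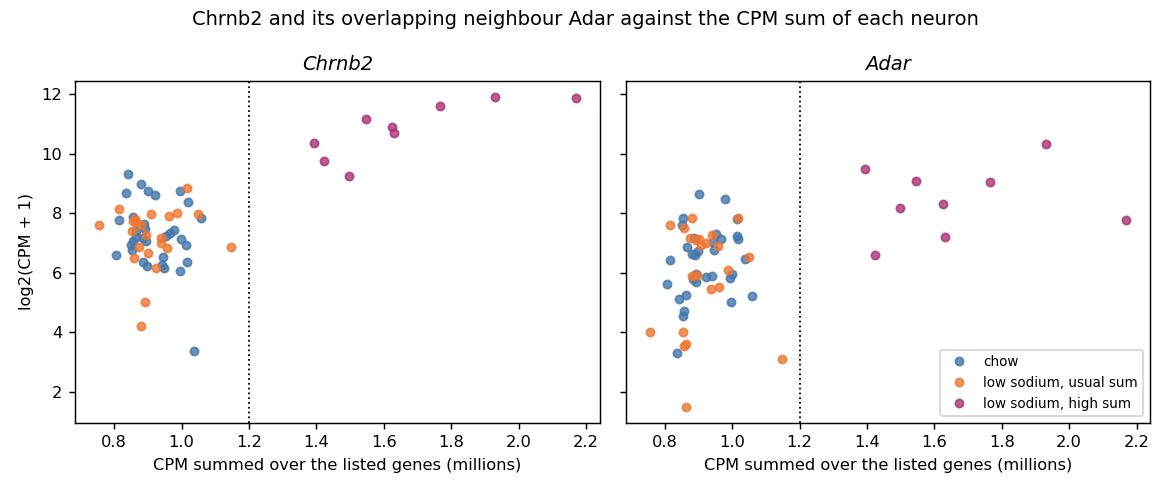
Level of Chrnb2 (left) and of Adar, whose exons overlap it (right), as log2(CPM + 1), against the CPM summed over the listed genes in each of 65 neurons; the dotted line is the limit of 1200000. The 9 cells to the right of the line have Chrnb2 at 9.26 to 11.93.

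Chrna3, the only alpha subunit analysed, was found in few neurons but at a clear level there. It was above 0 in 9 of 65 cells (13.8%, interval 6.53 to 24.7%), with 5 of the 33 chow neurons (15.2%, interval 5.11 to 31.9%) and 4 of the 32 low-sodium neurons (12.5%, interval 3.51 to 29.0%). The fewest reads behind it in any of these cells were 6 and the median was 59, and thinning every cell to 50000 reads left 8 of the 9. In chow it stood at 5.22 in neuron 18, 6.03 in neuron 20, 5.72 in neuron 38, 6.82 in neuron 63 and 9.16 in neuron 65. In low sodium it stood at 3.46 in neuron 9, 7.34 in neuron 30, 4.13 in neuron 32 and 5.96 in neuron 42, the last being 1 of the 9 cells with high CPM sums. The detecting cells of the diets overlapped (3.46 to 7.34 against 5.22 to 9.16), and all the other 56 cells were at 0.

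The mean over all cells, zeros included, was 1.00 ± 2.46 for chow neurons and 0.65 ± 1.84 for low-sodium neurons, which is lower by 0.35 (difference -0.35). Without chow neuron 65 the difference was -0.091 and without low-sodium neuron 30 it was -0.56. Thinning to 50000 reads gave -0.052. A few cells set this value, and it is far smaller than the spread between cells.

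Chrnb4, the beta-4 subunit, was above 0 in 12 of 65 cells (18.5%, interval 9.92 to 30.0%), in 7 chow cells and 5 low-sodium cells. The chow cells with it ran from 0.75 through a median of 5.57 to 8.74. The low-sodium cells stood at 2.93 in neuron 5, 6.33 in neuron 9, 4.49 in neuron 12, 7.17 in neuron 30 and 2.58 in neuron 32. None of the 9 cells with high CPM sums held a read of it, which allows a share of up to 33.3% (3 counts of 9, and 33.6% by the exact interval). In 3 of the 12 cells it rested on 1 to 3 reads, and 6 cells kept it after thinning.

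The alpha-3 and beta-4 transcripts occurred together in 7 of the 14 neurons that held either. Both were above 0 in 7 cells (10.8%, interval 4.44 to 20.9%), 4 chow and 3 low-sodium, which is 7 of the 9 cells with Chrna3 and 7 of the 12 with Chrnb4. Chrna3 without Chrnb4 was seen in chow neuron 18 and low-sodium neuron 42, Chrnb4 without Chrna3 in 5 cells, and neither in 51. The Spearman rho of the pair was 0.67 over 65 cells and 0.72 over the 56 without high sums, carried by cells that share zeros. Since Chrnb2 was in every cell, all 9 cells with Chrna3 also held Chrnb2, a count that only repeats the share of Chrna3. Thus 56 of 65 neurons held Chrnb2 without Chrna3, the only alpha transcript with a line, which restates the zeros of Chrna3. Chrna4 and Chrna7 could not be set beside Chrnb2 here.

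Levels of different subunits can be set side by side only per length of transcript. In the 7 cells with both, the ratio of Chrna3 to Chrnb4, each as CPM per kilobase of exon, ran from 0.0887 in low-sodium neuron 9 through a median of 0.796 to 2.35 in low-sodium neuron 32. The ratio of Chrna3 to Chrnb2 per kilobase ran from 0.0309 in low-sodium neuron 42 through a median of 0.623 to 4.60 in chow neuron 65. Chrna3 exceeded Chrnb2 on this scale in 3 of 9 cells, namely neurons 20 and 65 of chow and neuron 30 of low sodium. Chow neuron 65 carried the highest alpha-3 and beta-4 levels of all cells, 108.6 and 114.8 CPM per kilobase, beside 23.6 for Chrnb2.

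**Figure D3:**
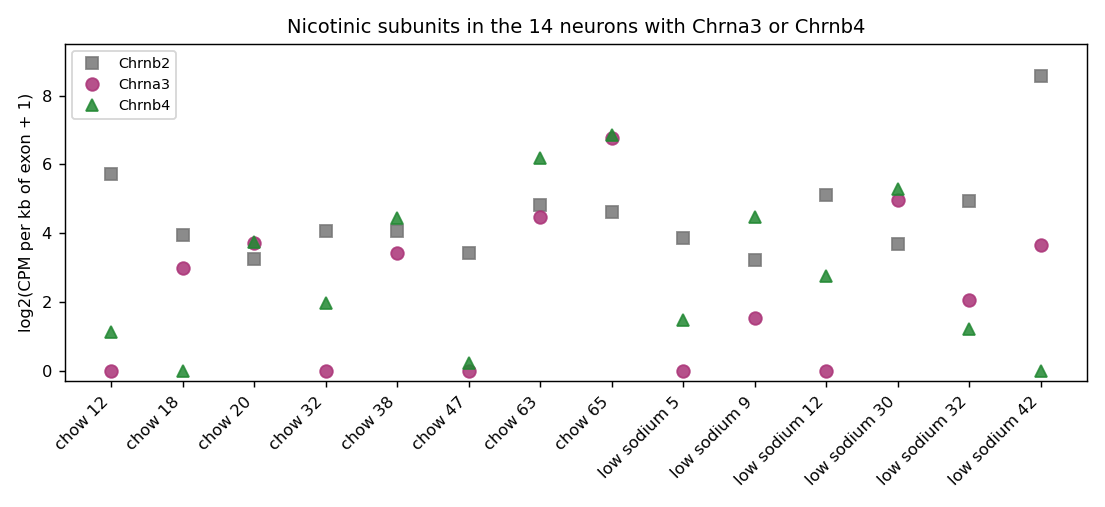
Chrnb2 (squares), Chrna3 (circles) and Chrnb4 (triangles) as log2(CPM per kilobase of exon + 1) in the 14 neurons with Chrna3 or Chrnb4 above 0, 1 column per neuron. Circles lie above squares in 3 columns: chow 20, chow 65 and low sodium 30.

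The neurons with Chrna3 also differed in what else their libraries held. All 9 were among the 36 cells with non-neuronal markers (8 with the astrocyte list and 6 with the oligodendrocyte list), and among the 29 cells without such markers Chrna3 was in 0 of 29, which allows a share of up to 10.3% (3 counts of 29, and 11.9% by the exact interval). Chrnb4 was in 2 of those 29, both under 10 CPM. In the 14 cells with Chrna3 or Chrnb4, the mean of 8 of 8 astrocyte markers and of 6 of 6 measured oligodendrocyte markers was higher than in the 51 cells with neither. Those 14 cells also had more genes detected (median 9672.5 against 7999). The share of all genes with a higher mean in the 14 cells is not given here, so these counts are not particular to the marker lists. The summed astrocyte log2 level ran from 12.4 to 64.5 (median 22.4) against 7.05 to 64.0 (median 13.1), and the oligodendrocyte sum from 6.62 to 59.7 (median 17.3) against 0 to 64.8 (median 14.4). No astrocyte or oligodendrocyte marker measured was at 0 throughout either set of cells.

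Markers of several other neuron types were also found more often with Chrna3. Chat, the enzyme that makes acetylcholine, or Slc18a3, its vesicular transporter, was above 0 in 6 of the 9 cells with Chrna3 and in 13 of the 56 without. Gad1 and Gad2, which make GABA, were above 0 in 3 and 4 of the 9 cells and each in 9 of the 56, and Th, the first enzyme of noradrenaline synthesis, in 3 of the 9 and 3 of the 56. Dbh, a later enzyme of that synthesis, was above 0 in 5 of the 9 and 26 of the 56, which are closer shares. Hsd11b2 stood at 7.87 ± 1.16 in the 9 and 9.03 ± 1.06 in the 56. Chow neuron 65, with the highest Chrna3 and Chrnb4, held Chat at 8.96, Slc18a3 at 8.90, Th at 8.60 and Dbh at 9.07. Its Hsd11b2 was at 7.47, and 4 astrocyte markers reached 10 CPM in it. The cells with Chrna3 had a median of 10515 genes detected against 8008, and of 872224 reads against 623994. The share of all genes found more often in the cells with Chrna3 is not given here. The part of RNA from other cells, and of depth, in the Chrna3 values was not tested.

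Adra2a, the alpha-2A adrenergic receptor, was found in most of the neurons at a low to moderate level. It was above 0 in 46 of 65 cells (70.8%, interval 58.2 to 81.4%), and the diets were nearly alike with 23 of the 33 chow neurons (69.7%, interval 51.3 to 84.4%) and 23 of the 32 low-sodium neurons (71.9%, interval 53.3 to 86.3%). The share depends on how detection is set: it was 67.7% at 1 CPM, 50.8% at 10 CPM and 43.1% (30.9 to 56.0%) after thinning to 50000 reads. In 11 of the 46 cells it rested on 1 to 3 reads. Cells with Adra2a had a median of 672190 reads and 8466 genes, and cells without it 478606 reads and 7560 genes, and a 0 at these depths can be a missed transcript.

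**Figure D4:**
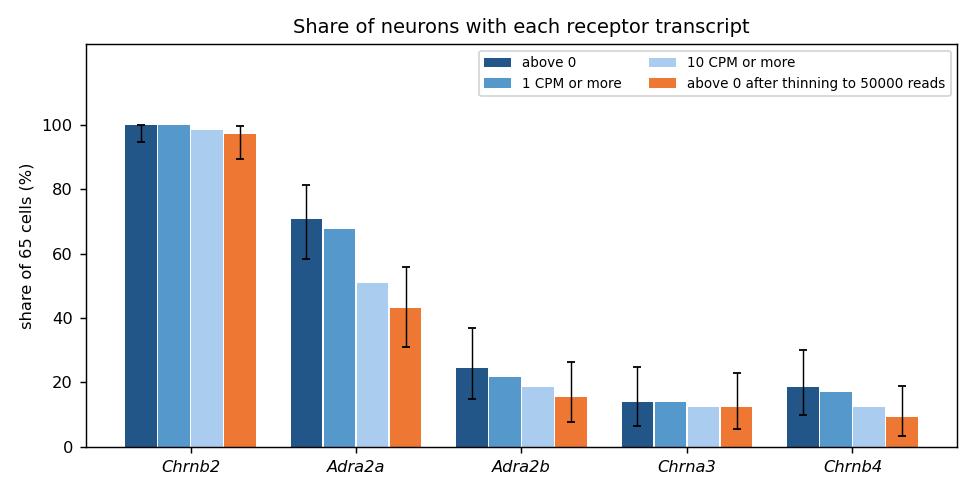
Share of the 65 neurons (percent) in which each receptor transcript was above 0, at 1 CPM or more, at 10 CPM or more, and above 0 after thinning every cell to 50000 reads; whiskers on the first and last bars are exact 95% intervals. Adra2a runs from 70.8% to 43.1%, whereas Chrnb2 stays at 96.9% or more.

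The levels of Adra2a overlapped between the diets. Chow cells ran from 0 through a median of 3.06 to 6.40 log2(CPM + 1), with a mean of 2.93 ± 2.33. Low-sodium cells ran from 0 through a median of 3.59 to 7.25, with a mean of 3.11 ± 2.42. Both ranges start at 0, and their upper ends lie close together. The difference of 0.18 was 0.051 without low-sodium neuron 42, the highest cell, and 0.29 without chow neuron 59. It was 0.24 without the 9 cells with high CPM sums and -0.012 without the 4 cells under 100000 reads, so its direction changed with the cells kept. Its highest values were 0.75 over the 29 cells without non-neuronal markers and 0.52 between the medians over cells. Among the 46 cells with the transcript, the mean was 4.20 ± 1.52 in chow (n = 23) and 4.33 ± 1.66 in low sodium (n = 23).

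Adra2b, the alpha-2B receptor, was the only one of 8 other adrenergic receptor genes with a line. It was above 0 in 16 of 65 cells (24.6%, interval 14.8 to 36.9%), with 5 of the 33 chow neurons (15.2%, interval 5.11 to 31.9%) and 11 of the 32 low-sodium neurons (34.4%, interval 18.6 to 53.2%). After thinning to 50000 reads these were 1 of 33 and 9 of 32. The highest chow cell was at 4.85 and the highest low-sodium cell at 7.08, with means of 0.56 ± 1.404 and 1.65 ± 2.63 and a median of 0 in both. The difference was 1.09, between 0.91 and 1.22 as single cells were left out, and 1.31 without the 9 cells, which puts Adra2b among the 3.93% and 2.96% of genes given above. The intervals of the shares overlap, and with 1 sample a diet this difference has no replicate check.

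Adra2a and Adra2b occurred together in 12 cells, Adra2a alone in 34, Adra2b alone in 4 and neither in 15, with a Spearman rho of 0.21 over 65 cells. All 9 cells with Chrna3 held Adra2a, as did 37 of the 56 without, but after thinning to 50000 reads both were found in only 3 cells, of 8 with Chrna3 and 28 with Adra2a. Chrnb2 and Adra2a levels were nearly unrelated across cells, with a rho of 0.033 over 65 cells. The mean of 8 of 8 astrocyte markers was higher in the cells with Adra2a, but the median summed level was lower. It was 14.1 (7.27 to 64.5) against 15.8 (7.05 to 37.7) in the cells without. The share of all genes with a higher mean in the cells with Adra2a is not given here. Among the 29 cells without non-neuronal markers the share with Adra2a was 69.0%.

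Per kilobase of exon, Chrnb2 led the order of mean levels over all 65 cells at 55.3 ± 98.0 CPM per kilobase, and at 22.5 ± 15.4 over the 56 cells without high sums. Below it came Chrnb4 (4.51 ± 17.5), Adra2a (4.39 ± 5.90), Chrna3 (3.17 ± 14.2) and Adra2b (2.45 ± 6.51), and none of these neighbours differed beyond the spread between cells. Over detecting cells only, Chrnb4 (24.4) and Chrna3 (22.9) lay above Adra2b (9.95) and Adra2a (6.21). Chow neuron 65 set much of this. Without it, the mean over detecting cells was 12.2 for Chrna3 and 16.2 for Chrnb4, and the mean over all cells 1.52 ± 5.16 and 2.79 ± 10.7, which puts Chrna3 last in the order. That setting was chosen after the values were seen.

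Of 13 listed names of chaperone and Ly6-family genes, which assemble or tune nicotinic receptors, 7 had a line and 6 of those were found in most neurons. Tmem35 was listed under its newer name Tmem35a as well. Ubqln1, a ubiquilin, and the Ly6-family genes Ly6h and Ly6e were above 0 in all 65 cells, Tmem35, which encodes the chaperone NACHO, in 64, Lynx1, a Ly6-family brake on nicotinic receptors, in 63 and the chaperone gene Ric3 in 57, whereas Lypd6 was above 0 in only 12. Of the 6 with a mean of at least 1, 2 were higher and 4 lower in low sodium, none by 1 or more, with a median difference of -0.14 against -0.12 over 10726 genes (4519 higher, 6207 lower). Lynx1 had the largest difference of the 6, from 6.84 in chow to 6.15 in low sodium, a difference of -0.69 (-0.74 without the 9 cells). Muscarinic receptor genes had no line among 5 listed. Of 7 genes for handling acetylcholine 5 had a line, and Ache, the esterase that breaks acetylcholine down, was above 0 in all 65 cells at a mean of 8.84 in chow and 9.17 in low sodium, and of 8.89 in low sodium without the 9 cells. The 3 genes of this list with a mean of at least 1 had a median difference of 0.33, and of 0.053 without the 9 cells.

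Genes through which alpha-2 receptors signal were mostly present as well. Of 22 listed gene names of Gi/o coupling, 19 had a line. Adrbk1 was listed under its newer name Grk2 as well, so the names without a line overstate the genes missed. Of the 19, 11 were higher and 8 lower in low sodium, with a median difference of 0.16 (0.043 without the 9 cells). Over all 10726 genes 4519 were higher and 6207 lower, with a median of -0.12 (-0.093 without the 9 cells). Gnao1, Gnb1 and Gng2, which encode G protein subunits, were above 0 in all 65 cells. Kcnj9, a subunit of G protein-gated potassium channels, was above 0 in 63, and its partners Kcnj3 in 36 and Kcnj6 in 23. By 1 or more, 1 of the 19 was higher and 0 lower over all cells (3.93% and 6.99% of all genes). Without the 9 cells 2 were higher and 1 lower (2.96% and 6.73% of all genes). Over the cells without non-neuronal markers 1 was higher and 5 lower, beside 1031 higher and 1392 lower of 10726 genes. The 5 lower were Adcy1 (-2.39), Kcnj3 (-1.61), Adcy5 (-1.53), Adrbk1 (-1.29) and Adcy2 (-1.06). The 1 higher over all cells was Rgs4, a regulator that shortens Gi/o signals, with a mean of 5.61 in chow and 7.14 in low sodium (1.53, and 1.91 without the 9 cells). Gnai1, an inhibitory alpha subunit, differed by 0.98, and by 1.08 without the 9 cells. Rgs7 also differed by 0.98, but by 0.42 without the 9 cells, and Adcy1 by -0.96 and -0.63. Adcy2, an adenylyl cyclase, had a difference of -0.98 and of -1.35 without the 9 cells, whereas its mean CPM was 37.0 in chow and 93.2 in low sodium, which the 9 cells set (277 in them and 21.2 in the other 23).

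**Figure D5:**
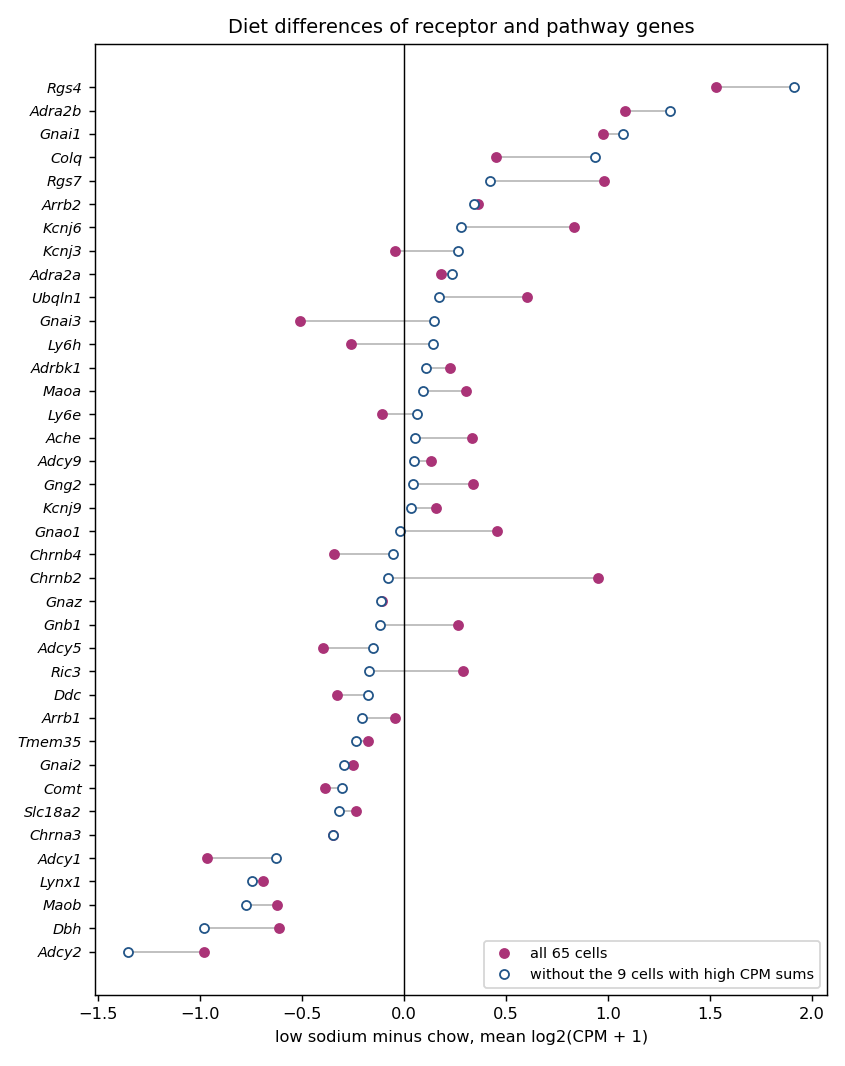
Difference between diets, low-sodium mean minus chow mean of log2(CPM + 1), for the receptors and the listed pathway genes above 0 in at least 16 cells, with Chrna3 and Chrnb4 added; filled points use all 65 cells and open points leave out the 9 cells with high CPM sums. Chrnb2 moves from 0.95 to -0.079, while Rgs4 and Adra2b stay above 1 in both.

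These effectors were set against the presence of Adra2a. Gnao1 stood at 8.77 ± 0.76 in the 46 cells with Adra2a and 8.87 ± 0.88 in the 19 without, and Kcnj9 at 6.25 ± 1.90 and 6.23 ± 1.37. Both were thus found at like levels with or without the receptor transcript. Kcnj3 was above 0 in only 25 of 46 and 11 of 19 cells, and Kcnj6 in 16 of 46 and 7 of 19. Of the 19 listed genes with a line, Arrb1, which encodes beta-arrestin 1, had the largest difference in mean, followed by Gnai3. Arrb1 stood at 4.32 ± 2.71 in cells with Adra2a and at 2.24 ± 2.73 in cells without. It was above 0 in 76.1% (61.2 to 87.4%) and 52.6% (28.86 to 75.55%) of them, with overlapping intervals. The share of all genes that differ as much is not given here. Gnai3 was above 0 in 30 of 46 cells (65.2%, 49.8 to 78.7%) and 7 of 19 (36.8%, 16.3 to 61.6%), with overlapping intervals. Cells with Adra2a were also deeper, and the part of depth in these values was not tested.

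Genes for making and clearing noradrenaline were of interest because alpha-2A receptors can sit on noradrenergic cells themselves. Of 9 listed, 7 had a line, and of the 6 with a mean of at least 1, 1 was higher and 5 lower in low sodium (median -0.36, and -0.31 without the 9 cells), none by 1 or more. Over all 10726 genes 6207 were lower, with a median of -0.12 (-0.093 without the 9 cells). Dbh, the enzyme that makes noradrenaline from dopamine, was above 0 in 31 cells, 20 of them with Adra2a. Adra2a stood at 2.96 ± 2.42 in cells with Dbh and 3.07 ± 2.33 in cells without, a difference far inside the spread between cells. Th was above 0 in 6 cells, all of them with Adra2a (13.0% of 46, interval 4.94 to 26.3%), and in 0 of the 19 cells without (interval 0 to 17.65%). These intervals overlap, and Adra2a was above 0 in 70.8% of all cells. In low-sodium neuron 9, Th stood at only 0.49 log2(CPM + 1).

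The genes whose levels went most with each receptor were taken by Spearman rank correlation over 65 cells among 8099 genes above 0 in at least 33 cells. For Chrnb2 they were Ecel1 (0.63), Syn1, a synaptic vesicle protein (0.61), Ubfd1 (0.60) and Fam65a (0.59). For Chrna3 they were Csmd3 (0.52), Gal, the neuropeptide galanin (0.50), Pole4 (0.50), Rimklb (0.48) and Maob, a monoamine oxidase (0.48), while Chrna3 itself had a rho of 0.54 with the number of genes detected per cell. For Adra2a they were Tbpl1 (0.44), Khsrp (0.44), Prpf19 (0.43), Borcs8 (0.41) and Mrps35 (0.41). The cells share library scale and depth. Without the 9 cells with high sums these 4 Chrnb2 values fell to between 0.37 and 0.42, at ranks 11 to 38, and other genes, led by Vps39 (0.51), took their place. Gal then led for Chrna3 (0.56) and Mrps35 for Adra2a (0.47). For Adra2a, Khsrp and Prpf19 then stood at ranks 5 and 4, whereas Tbpl1 and Borcs8 fell to ranks 10 and 30. In chow cells alone, Tbpl1 and Borcs8 stood at ranks 352 and 145.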

How the data were processed

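Single neurons were measured by Smart-Seq2 with Nextera XT libraries of polyA RNA, per the labels' protocols. The authors deposited log2(CPM + 1) values per gene and cell. Per the submitters' processing notes featureCounts 1.4.6, HISAT2 2.0.5, SAMtools 0.1.19, Picard 2.5.0 and bcl2fastq were used on mm10 (GRCm38). Settings, annotation and scaling total: not given in the sources used here. Of 12015 lines, 123 share a name and 17 carry serial numbers, and both kinds were left out. A column was given its diet and neuron by its name, with CTRL read as standard chow and noSALT as low sodium.

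CPM were recovered by undoing the log2. Within each cell, 99.99% of low CPM values were whole multiples of a smallest step within 0.1 steps, over values up to 20 steps, and a step was taken as 1 read. A read stood for 1.58 CPM in the median cell (0.16 to 16.1 over cells), so rarer transcripts can be missed. Cells are not replicates of a diet, so shares have exact binomial intervals at the 95% level, levels have the SD over cells, and no test was run. Adding 1 CPM before the log makes differences between low levels smaller.

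The members and gene lists were chosen with earlier results of these data known. The genes named are the members, genes of the lists above 0 in at least 16 cells or on which a result turns, and the 5 genes most like each member by rank correlation, of which 1 is not reported here. The limit of 1200000 on the CPM sum separates the 9 cells that stand apart. Alternatives changed the detection limit, depth, pseudocount, scaling, summary and cells kept. Rescaling to a fixed sum, leaving out the 9 cells with thinning, and leaving out chow neuron 65 were chosen after seeing the data. The scripts were tested on simulated data. Python 3.11.15, NumPy 2.4.6, pandas 2.3.3, SciPy 1.17.1 and matplotlib 3.10.9 were used.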

Additional observations from a re-analysis of the deposited data

How the results depend on the processing

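Of 138 alternative values, 6 turned direction and 12 moved beyond the spread between cells (for shares, beyond the exact interval). The other 120 did neither, but they include differences of Chrna3 that became 0 by the median over cells and without cells with non-neuronal markers, a difference of Chrnb4 that became 0 by the median, and rank correlations, which were judged by sign alone. When the 36 cells that carried non-neuronal markers were dropped, the share of cells with Chrna3, and its co-detection with Chrnb2 or Chrnb4, was 0, and the share with Chrnb4 was 6.90%. The share with Adra2a was 50.8% at 10 CPM or more and 43.1% after thinning to 50000 reads, where Chrnb4 was at 9.23%. The mean of Chrna3 was 3.73 with a pseudocount of 10 CPM and -2.04 with 0.1 CPM, since its zeros follow the pseudocount by construction. Per kilobase of coding length, Chrnb2 was at 197 CPM and Adra2a at 15.2, and Chrna3 over detecting cells was at 22.9 per kilobase of exon. The diet difference of Chrnb2 turned to -0.079 without the 9 cells with high CPM sums and to -0.30 with thinning as well, and that of Adra2a to -0.012 without cells under 100000 reads and to -0.064 without the 9 cells and with thinning. The median of the genes for handling acetylcholine, 0.33 over 3 genes, turned to -0.14 without cells with non-neuronal markers and to -0.33 with no limit on the mean, which adds 2 genes. The cause of the other shifts was not tested. Leaving out single cells moved the differences of Chrnb2 between 0.83 and 1.08, of Chrna3 between -0.56 and -0.091 and of Adra2a between 0.051 and 0.29.

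No paired analysis was possible because the labels give neuron numbers only as names of cells, no animal is named and no test between diets was run. The 9 cells with high CPM sums lie among the higher low-sodium numbers. With 1 sample a diet, no value here separates diet from animal, day or library preparation. Depth limits Adra2a, Adra2b and Chrnb4, which thinning left in 28 of 46, 10 of 16 and 6 of 12 cells, more than Chrnb2, left in 63 of 65.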
